A study of Mus musculus with 6 samples.

Results

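Excitatory and inhibitory postsynaptic scaffolds and the adhesion proteins that organise synapses were followed as 36 genes, all the members of a list of such genes, matched by symbol among the 23366 genes of the count table. RNA was sequenced from cerebellar granule neurons cultured from litters of C57BL/6 mice at postnatal day 7 and enriched on a Percoll gradient. On day 1 in vitro the cultures received lentivirus carrying pLKO.1, empty in the control (n = 3) or with a short hairpin RNA against the histone H3 lysine 27 demethylase gene Kdm6b in the knockdown (n = 3). The control carries no hairpin, and 1 hairpin sequence is known here. The day of harvest and the cultures that received BDNF are not given in the labels.

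At an excitatory synapse, proteins of the PSD-95 family bind receptor tails through PDZ domains, SAPAP proteins link them to Shank proteins, and Shanks reach the actin cytoskeleton. Gephyrin forms the corresponding lattice at inhibitory synapses. Neuroligins, Lrrtm, netrin-G ligand, Slitrk and Flrt proteins span the membrane and bind partners on the other cell, such as neurexins, netrin-G proteins, LAR-type receptor phosphatases and latrophilins. Granule neurons receive their excitatory input from mossy fibres and their inhibitory input from Golgi cells, and their own axons, the parallel fibres, contact Purkinje cells.

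Gene counts per library ranged from 50326298 to 88214069. Levels are given as CPM, read counts relative to library sizes scaled with TMM (trimmed mean of M values). Kdm6b was at 257, 146 and 170 CPM in control replicates 1 to 3 and at 88.8, 63.3 and 79.8 CPM in knockdown replicates 1 to 3, so that the groups did not overlap (log2 fold change −1.28, SE 0.11, edgeR adjusted p = 0.0282 with the replicate number as a block and 0.216 without). The 10 granule neuron markers summed to 5037, 4451 and 3399 CPM in control replicates 1 to 3 and to 4311, 4161 and 3163 CPM in the matching knockdowns, lower in each pair. Of these markers Etv1 fell, to 37.8% of its control mean (edgeR adjusted p = 0.0299 with the block). Slc17a7, the vesicular glutamate transporter gene, stood at 43.3% with groups that did not overlap and did not pass (edgeR adjusted p = 0.0562). Pax6 went the other way, at 169.5% of its control mean, and did not pass either (edgeR adjusted p = 0.0510 with the block). In 3 of the 10 markers, Pax6, Zic1 and Zic2, the knockdown was higher in every pair, and in 5 it was lower in every pair. Of 6 Purkinje cell markers, Pcp2 and Ppp1r17 were below 1 CPM on average over the libraries. Itpr1 averaged 33.8 CPM, Rora 29.8 CPM, Calb1 4.75 CPM and Car8 3.22 CPM. Of these Car8 fell, to 34.5% of its control mean (edgeR adjusted p = 0.0453 with the block). Microglial markers summed to 97.3 CPM in control replicate 1 and to 0.761 to 32.8 CPM in the other 5 libraries. In bulk RNA, fewer cells of a type and less RNA per cell cannot be told apart.

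All 36 members passed the filter on low counts and were tested. With the replicate number as a block in the edgeR fit, Slitrk5 rose and Dlg1, Slitrk4 and Flrt2 fell (Benjamini-Hochberg adjusted p under 0.05 over all genes tested), and 32 members did not pass. That is 2.78% of members higher against 2.58% of all 15731 genes tested, and 8.33% lower against 5.4%. With so few genes called, both shares in this fit are near the background. Without the block 0 members passed the adjusted threshold in the edgeR quasi-likelihood test, where 0.00636% of all genes did. At an unadjusted p of 0.05 in that fit, 4 members lay above and 4 below control, 22.2% of the list against 10.6% of all genes. DESeq2 without the block called 1 member, Slitrk5, against 3.61% of all genes. DESeq2 with the block called 9 members higher and 9 lower, and 3440 of all 15731 genes. From here on, rose, fell, passed and the SEs refer to the edgeR fit with the block, unless another setting is named. A log2 fold change is that of the knockdown over the control.

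The median log2 fold change of the 36 members was 0.10, against 0.02 for all genes tested. In 16 members the knockdown was higher in all 3 replicate pairs and in 10 it was lower in all 3, together 72.2% of the list against 60.2% of all genes. Control and knockdown values did not overlap in 4 members that were higher (Slitrk5, Nlgn1, Lrrtm1 and Lrrtm4) and in 2 that were lower (Dlg1 and Shank3). Among all genes tested 9.21% were separated upwards and 7.44% downwards. All 4 calls were lost when replicate pair 1 or pair 2 was left out (0 of 36 members called, edgeR adjusted p from 0.0562 to 0.165 for these genes). Over all genes tested, 0 were then called without pair 1 and 53 without pair 2, against 1256 with all pairs. Without pair 3 the call of Slitrk4 was lost (log2 fold change −0.52, edgeR adjusted p = 0.0616).

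**Figure D1:**
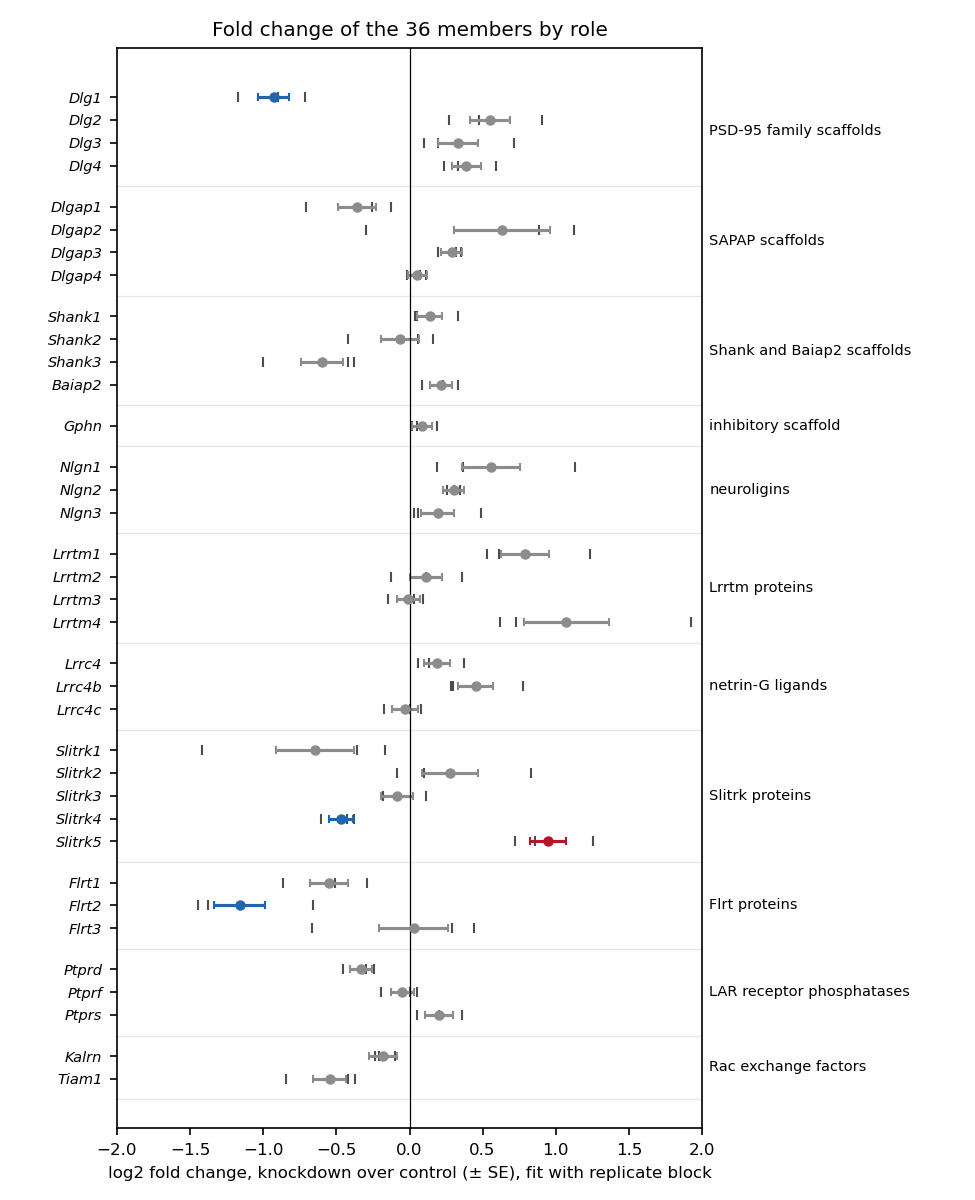
Knockdown against control as a log2 fold change (horizontal axis, ± SE, edgeR fit with the replicate block) for each of the 36 members, grouped by role, with ticks at the difference in each of the 3 replicate pairs. Slitrk5 (red) rose, Dlg1, Slitrk4 and Flrt2 (blue) fell, and grey members did not pass.

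Dlg1 encodes SAP97, a PSD-95 family scaffold found in neurons and in epithelia. It stood at 73.5, 118 and 112 CPM in control replicates 1 to 3 and at 32.6, 62.9 and 68.4 CPM in knockdown replicates 1 to 3. Every knockdown value lay below every control value, and replicate 1 was the lowest library in both groups. Dlg1 fell from 101 ± 24.1 to 54.6 ± 19.3 CPM (SD, n = 3), a log2 fold change of −0.93 (SE 0.11, edgeR adjusted p = 0.0282; without the block −0.89, edgeR adjusted p = 0.436).

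The other 3 genes of the family were higher in the knockdown of every pair but did not pass. Dlg4, which encodes PSD-95 itself, was at 436, 315 and 291 CPM in controls and at 514, 474 and 367 CPM in knockdowns (log2 fold change 0.39, SE 0.10, edgeR adjusted p = 0.0727). Dlg2, which encodes PSD-93, ranged from 182 to 401 CPM in controls and from 294 to 558 CPM in knockdowns (log2 fold change 0.55, SE 0.14), and it passed with library totals alone as the scaling (0.62, edgeR adjusted p = 0.0404). DESeq2 with the block called Dlg2 and Dlg4 higher (DESeq2 adjusted p = 0.0054 and 0.0145). Dlg3, which encodes SAP102, had a log2 fold change of 0.33 (SE 0.14). Per kilobase of exon, Dlg1 made up 6.84%, 15.3% and 14.7% of the summed level of the 4 genes in controls and 2.66%, 5.61% and 8.02% in knockdowns. Its share was lower in the knockdown of every pair, although control replicate 1 lay below knockdown replicate 3. The ratio of Dlg1 to Dlg4 counts, which no scaling of libraries affects and which was chosen after the values were seen, was 0.169, 0.373 and 0.385 in controls and 0.0634, 0.133 and 0.186 in knockdowns.

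**Figure D2:**
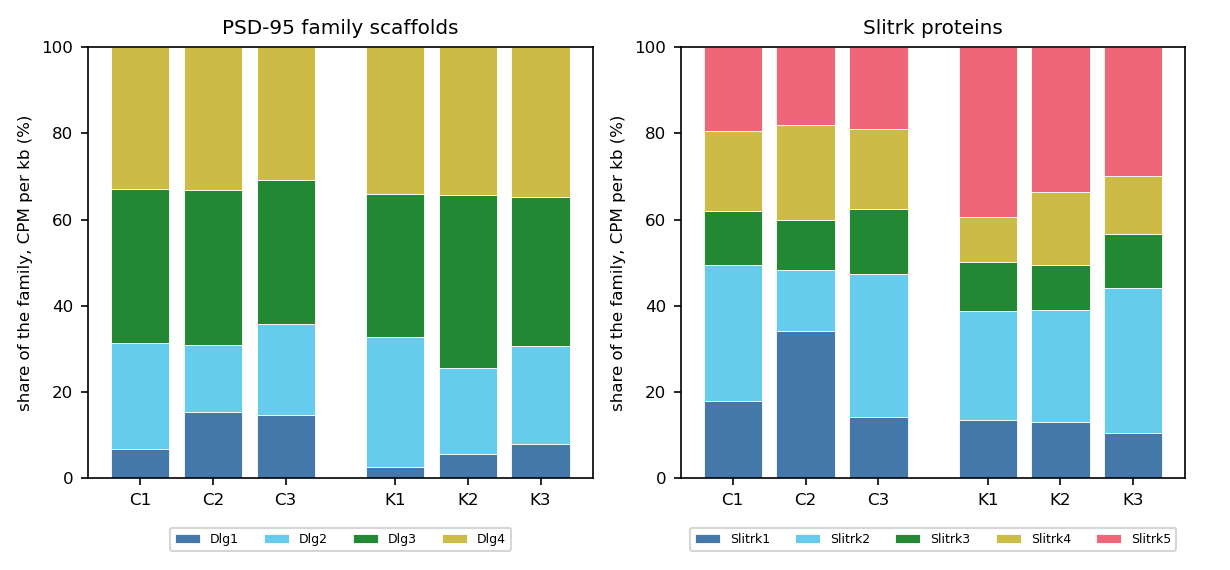
Share (%) of each gene in the summed CPM per kilobase of exon of the PSD-95 family (left) and of the Slitrk genes (right), 1 bar per library, with controls C1 to C3 and knockdowns K1 to K3. The Dlg1 share was 6.84% to 15.3% in controls and 2.66% to 8.02% in knockdowns, and the Slitrk5 share was 18.2% to 19.4% in controls and 29.8% to 39.4% in knockdowns.

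None of the 4 SAPAP genes, which encode the proteins between PSD-95 and Shank, passed the test. Dlgap3, the most abundant of them per kilobase, was at 252, 218 and 170 CPM in controls and at 314, 278 and 194 CPM in knockdowns. It was higher in each pair by a similar margin (log2 fold change 0.29, SE 0.07, edgeR adjusted p = 0.0715). Dlgap1 was lower in each pair (−0.36, SE 0.13) and Dlgap4 lay at 0.05 (SE 0.07). Dlgap2 was the lowest member of all, at 0.454 to 2.84 CPM in controls and 0.369 to 5.25 CPM in knockdowns, and its control libraries differed 6.25-fold among themselves.

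Shank3, a scaffold at the deep side of the postsynaptic density, was at 176, 180 and 145 CPM in controls and at 135, 89.5 and 108 CPM in knockdowns. The groups did not overlap, with means of 167 ± 19.1 and 111 ± 22.7 CPM (SD, n = 3), but the gene did not pass (log2 fold change −0.60, SE 0.14, edgeR adjusted p = 0.0662). With the block DESeq2 called Shank3 lower (DESeq2 adjusted p = 0.0013). Its paralog Shank1 had a log2 fold change of 0.14 (SE 0.09). Shank2 lay at −0.07 (SE 0.13), and at 0.01 with library totals alone as the scaling. The difference between paralogs was not tested. The ratio of Shank3 to Shank1 counts, also chosen after the values were seen, was 1.34 to 1.76 in controls and 0.696 to 1.09 in knockdowns. Baiap2, which encodes the Shank-binding actin regulator IRSp53, lay at a log2 fold change of 0.21 (SE 0.08), without passing. Gphn, the gene of gephyrin, ranged from 88.4 to 121 CPM in controls and from 91.7 to 122 CPM in knockdowns (log2 fold change 0.09, SE 0.07).

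The 3 neuroligins, postsynaptic ligands of neurexins, were higher in the knockdown of every pair and none passed. Nlgn1, found mainly at excitatory synapses, was at 38.0, 28.0 and 37.7 CPM in controls and at 49.0, 61.4 and 43.0 CPM in knockdowns. Its groups did not overlap (log2 fold change 0.56, SE 0.20, edgeR adjusted p = 0.128), and the difference was widest in pair 2. Nlgn2, the neuroligin of inhibitory synapses, was at 424, 261 and 329 CPM in controls and at 522, 331 and 394 CPM in knockdowns (0.30, SE 0.07, edgeR adjusted p = 0.0667). Per kilobase Nlgn2 was the highest of all 36 members, at 58.4 ± 14.2 CPM per kb in controls (SD, n = 3), and it made up 82.5% to 87.2% of the neuroligin sum there. Nlgn3 had a log2 fold change of 0.19 (SE 0.11).

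Lrrtm proteins are leucine-rich repeat ligands of neurexins at excitatory synapses. Lrrtm1 was at 15.6, 14.6 and 11.3 CPM in controls and at 22.4, 34.3 and 17.4 CPM in knockdowns, with no overlap (log2 fold change 0.79, SE 0.17, edgeR adjusted p = 0.055). Lrrtm1 passed with library totals alone as the scaling (0.86, edgeR adjusted p = 0.0402) and in DESeq2 with the block (DESeq2 adjusted p = 0.0011). Lrrtm4, which also binds heparan sulphate proteoglycans, was at 8.03, 3.58 and 5.85 CPM in controls and at 13.3, 13.6 and 8.97 CPM in knockdowns. Its groups did not overlap either, and it did not pass (1.07, SE 0.29, edgeR adjusted p = 0.081). Lrrtm3, the most abundant of the 4, ranged from 87.5 to 128 CPM in controls and from 78.8 to 131 CPM in knockdowns (−0.01, SE 0.08), a value whose sign depended on the fit and the scaling. Lrrtm2 had a log2 fold change of 0.11 (SE 0.11).

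**Figure D3:**
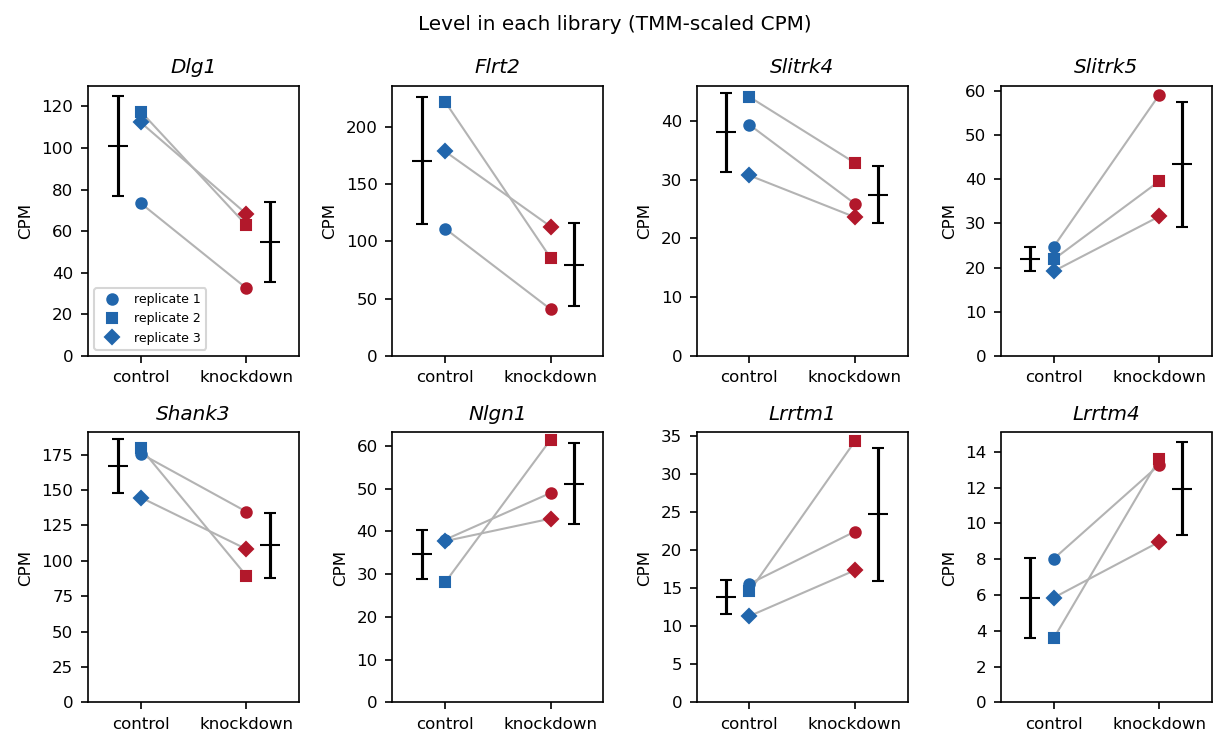
TMM-scaled CPM (linear axes from 0) of 8 members in each library, with a line joining control and knockdown of the same replicate number and black marks for the group mean with its SD (n = 3). Dlg1, Shank3, Slitrk5, Nlgn1, Lrrtm1 and Lrrtm4 have groups that do not overlap, while those of Flrt2 and Slitrk4 overlap.

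Slitrk proteins bind LAR-type receptor phosphatases across the synaptic cleft, and 2 of the 5 genes changed, in opposite directions. Slitrk5 was at 24.7, 21.9 and 19.2 CPM in controls and at 59.1, 39.6 and 31.6 CPM in knockdowns. Every knockdown value lay above every control value, and knockdown replicate 1 was the highest. The Slitrk5 level rose from 21.9 ± 2.77 to 43.4 ± 14.2 CPM (SD, n = 3), a log2 fold change of 0.95 (SE 0.13, edgeR adjusted p = 0.0319; without the block 0.99, edgeR adjusted p = 0.315).

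Slitrk4 was at 39.4, 44.1 and 30.7 CPM in controls and at 25.9, 32.9 and 23.6 CPM in knockdowns. It was lower in each pair, while knockdown replicate 2 lay above control replicate 3. The Slitrk4 level fell from 38.1 ± 6.78 to 27.5 ± 4.81 CPM (SD, n = 3), a log2 fold change of −0.47 (SE 0.08, edgeR adjusted p = 0.0428; without the block −0.47, edgeR adjusted p = 0.471). With library totals alone as the scaling this call was lost (−0.40, edgeR adjusted p = 0.0823). The ratio of Slitrk5 to Slitrk4 counts, chosen after the values were seen, was 0.628, 0.496 and 0.625 in controls and 2.28, 1.20 and 1.34 in knockdowns, so Slitrk4 gave more reads in every control and Slitrk5 in every knockdown.

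Slitrk1, Slitrk2 and Slitrk3 did not pass. Slitrk1 varied most, with control replicates at 23.1, 41.8 and 14.6 CPM and knockdowns at 20.6, 15.6 and 11.4 CPM (log2 fold change −0.65, SE 0.27). Slitrk2 was the most abundant Slitrk gene per kilobase in controls, at 5.73 ± 2.24 CPM per kb (SD, n = 3). The control replicate 2 level of Slitrk2, 26.3 CPM, stood below its other 5 libraries (46.8 to 61.6 CPM).

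Flrt proteins bind latrophilins and Unc5 receptors, and Flrt2 showed the largest fall of the 36 members. Flrt2 was at 111, 222 and 179 CPM in controls and at 40.8, 85.6 and 113 CPM in knockdowns. It was lower in each pair, and the groups met where knockdown replicate 3 lay just above control replicate 1. Flrt2 fell from 171 ± 55.8 to 79.8 ± 36.5 CPM (SD, n = 3), a log2 fold change of −1.16 (SE 0.18, edgeR adjusted p = 0.0371; without the block −1.10, edgeR adjusted p = 0.456). Flrt1 was lower in each pair as well and did not pass (−0.55, SE 0.13, edgeR adjusted p = 0.0645). Flrt3 was higher in pairs 1 and 3 and lower in pair 2 (0.03, SE 0.24, with the sign changing under RLE scaling without the block).

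Some markers of other cell types also fell. Of 9 pericyte and fibroblast markers 6 fell and 0 rose, and their summed level was 13119 to 26294 CPM in controls and 4317 to 11909 CPM in knockdowns. None was at 0. The lowest, the pericyte gene Rgs5, went the other way in 2 of 3 pairs and did not pass, with 5.05, 9.59 and 6.31 CPM in control replicates 1 to 3 and 4.27, 21.3 and 7.93 CPM in the matching knockdowns. Another pericyte gene, the receptor gene Pdgfrb was at 99.04, 233 and 186 CPM in controls and at 42.4, 81.5 and 76.2 CPM in knockdowns, and it fell. Of 9 oligodendrocyte lineage markers 3 fell and 0 rose, and those that fell include Cspg4 and Ugt8a, at 32.2% and 49.6% of their control means. The lineage markers that did not pass ranged from 60.2% for Mog to 97.6% for Olig2. Of 9 astrocyte and Bergmann glia markers 1 fell, Gja1, to 32.8% of its control mean, and their sum was lower in the knockdown of pairs 1 and 2 and higher in pair 3. The ratio of Flrt2 to Pdgfrb counts was 0.953 to 1.12 in controls and 0.961 to 1.48 in knockdowns, with overlap. That of Dlg1 to Pdgfrb was 0.505 to 0.742 in controls and 0.769 to 0.897 in knockdowns, without overlap. Against the collagen gene Col3a1, the Flrt2 ratio was 0.0262, 0.0504 and 0.0389 in control replicates 1 to 3 and 0.0339, 0.0716 and 0.0617 in the matching knockdowns, higher in each pair. These ratios were chosen after the values were seen. Relative to its control mean, Flrt2 stood at 23.9%, 50.2% and 66.2% in knockdown replicates 1 to 3, and Pdgfrb at 24.6%, 47.2% and 44.2%. Both were close in replicates 1 and 2, and Flrt2 was higher than Pdgfrb in replicate 3. The part of these cells in the lower Flrt2 and Dlg1 levels was not tested.

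**Figure D4:**
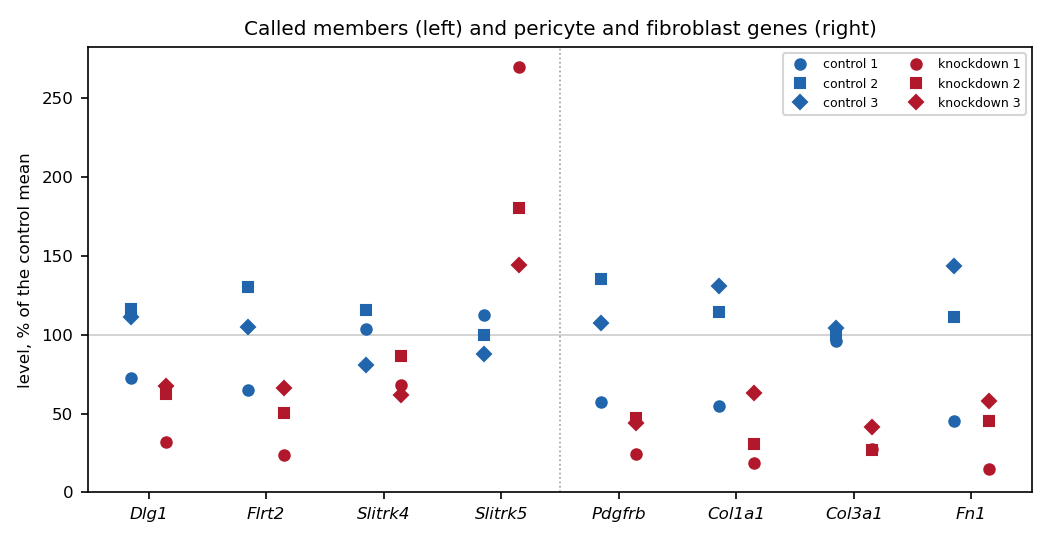
Level in each library as a percentage of the gene's control mean (linear axis from 0) for the 4 members that changed and for 4 pericyte and fibroblast genes. Flrt2 and Pdgfrb are lowest in knockdown replicate 1, at 23.9% and 24.6%, and Slitrk5 lies at 144% to 270% in knockdowns.

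The promoters of the pair of genes that fell furthest, Flrt2 and Dlg1, are shown as the 250 bases before the most upstream RefSeq start site (build GRCm38.p6), 5′ to 3′ on the plus strand, with each CG dinucleotide, the dinucleotide that carries most DNA methylation, in capitals. The windows are chr12:95691976-95692225 for Flrt2 and chr16:31663193-31663442 for Dlg1.
Flrt2: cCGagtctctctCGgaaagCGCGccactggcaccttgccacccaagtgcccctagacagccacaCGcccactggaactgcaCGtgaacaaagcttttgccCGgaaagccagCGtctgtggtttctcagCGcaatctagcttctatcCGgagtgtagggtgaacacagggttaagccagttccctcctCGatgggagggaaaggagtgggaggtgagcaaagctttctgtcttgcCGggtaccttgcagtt
Dlg1: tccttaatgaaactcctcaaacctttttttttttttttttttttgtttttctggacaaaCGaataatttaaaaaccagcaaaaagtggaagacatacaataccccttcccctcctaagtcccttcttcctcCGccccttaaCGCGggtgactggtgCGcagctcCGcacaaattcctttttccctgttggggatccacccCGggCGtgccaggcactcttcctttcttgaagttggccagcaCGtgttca

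The Flrt2 window holds 12 CG dinucleotides and the Dlg1 window 9. CG reads the same on both strands. The median over all 27025 genes with a window was 6, and over the 28 members with one it was 9. At least 12 CG were found in 33.8% of all windows and at least 9 in 40.8%. The Slitrk5 window held 30, a number reached by 5.64% of all windows. Members that did not pass held more, with 37 in Dlgap4, 34 in Gphn and 31 each in Baiap2 and Shank3. These counts describe the windows and say nothing of binding there.

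The hairpin strand printed in the labels has 21 bases, and its bases 8 to 14 form the 7-letter word ACAAGTG, which earlier results of these data singled out. That word, in capitals below, was searched on the transcript strand only, taking for each gene its longest 3′ UTR (GENCODE M21, build GRCm38). The sites in the Slitrk4 and Dlg1 transcripts are shown because both genes fell.
Hairpin strand: gttcgttACAAGTGagaactc
Dlg1 site: gtgaactgaagACAAGTGtccggtggcg
Slitrk4 site: ctaatatgtaaACAAGTGgcatcaaata

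The word was present in 6 of 36 members (16.7%), against 12.5% of the 14028 genes tested that have an annotated 3′ UTR. The members' 3′ UTRs were longer, with a median of 2235 bases against 1367, and the shares are not adjusted for length. Of the 3 members that fell, Dlg1 and Slitrk4 hold it and Flrt2 does not. The other 4 members with the word did not pass the test, Dlg2 at a log2 fold change of 0.55, Dlgap4 at 0.05, Nlgn3 at 0.19 with 2 copies, and Lrrtm2 at 0.11. Over all genes the word was found in 30.0% of those that fell and in 5.81% of those that rose, whose median 3′ UTR lengths were 1780 and 1373 bases. Because the word was taken from earlier results of these same data, these shares are not an independent test of it. The part of the hairpin sequence in the lower Dlg1 and Slitrk4 levels was not tested.

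The netrin-G ligand genes encode leucine-rich repeat proteins that bind netrin-G proteins or, for Lrrc4b, receptor phosphatases. None passed. Lrrc4b, the third highest member per kilobase at 45.97 ± 9.64 CPM per kb in controls (SD, n = 3), was at 166, 112 and 126 CPM in controls and at 202, 192 and 155 CPM in knockdowns (log2 fold change 0.45, SE 0.12, edgeR adjusted p = 0.0795). Lrrc4 lay at 0.19 on the log2 scale (SE 0.09) and Lrrc4c at −0.03 (SE 0.09), or 0.04 with library totals alone.

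The LAR-type receptor phosphatases Ptprd, Ptprf and Ptprs are presynaptic partners of Slitrk proteins and of Lrrc4b. Ptprs was at 534, 424 and 578 CPM in controls and at 685, 439 and 664 CPM in knockdowns (log2 fold change 0.20, SE 0.10). Ptprd was lower in each pair, at 173, 116 and 163 CPM in controls and at 141, 84.5 and 138 CPM in knockdowns (−0.33, SE 0.07, edgeR adjusted p = 0.0585). Ptprf lay at −0.05 (SE 0.08), or 0.02 with library totals alone, and none of the 3 passed.

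The Rac exchange factors Tiam1 and Kalrn, which act on spine actin, were lower in each pair and did not pass. Tiam1 was at 123, 165 and 99.4 CPM in controls and at 68.4, 124 and 76.8 CPM in knockdowns (log2 fold change −0.55, SE 0.11, edgeR adjusted p = 0.0556). Kalrn was low, and its libraries followed the replicate number more than the hairpin, with 6.32, 20.3 and 12.8 CPM in control replicates 1 to 3 and 5.37, 17.6 and 11.9 CPM in the matching knockdowns (−0.18, SE 0.10).

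Compared per kilobase of exon, the control levels of the 36 members spanned from 58.4 CPM per kb for Nlgn2 to 0.228 CPM per kb for Dlgap2. Behind Nlgn2 came Dlgap3 (47.2 ± 9.12), Lrrc4b (45.97 ± 9.64) and Ptprs (34.1 ± 5.30 CPM per kb, SD, n = 3). Dlgap3 and Lrrc4b differed by less than the SD of either. Nlgn2 lay above Dlgap3 by less than its own SD but more than that of Dlgap3, and Lrrc4b lay above Ptprs by more than the SD of either. Dlg3 (28.4 ± 6.34), Gphn (27.8 ± 4.31), Dlg4 (26.2 ± 5.85), Baiap2 (25.2 ± 6.35) and Lrrtm3 (24.8 ± 4.81 CPM per kb, SD, n = 3) differed from one another by less than the SD of any of them. Slitrk5, which rose, was at 4.17 ± 0.526 CPM per kb in controls (SD, n = 3). Of the members that fell, Flrt2 was at 22.1 ± 7.23, Dlg1 at 9.42 ± 2.24 and Slitrk4 at 4.35 ± 0.775 CPM per kb there (SD, n = 3). Exonic lengths are those of all models in GENCODE M21 and may differ from the models used for counting.

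**Figure D5:**
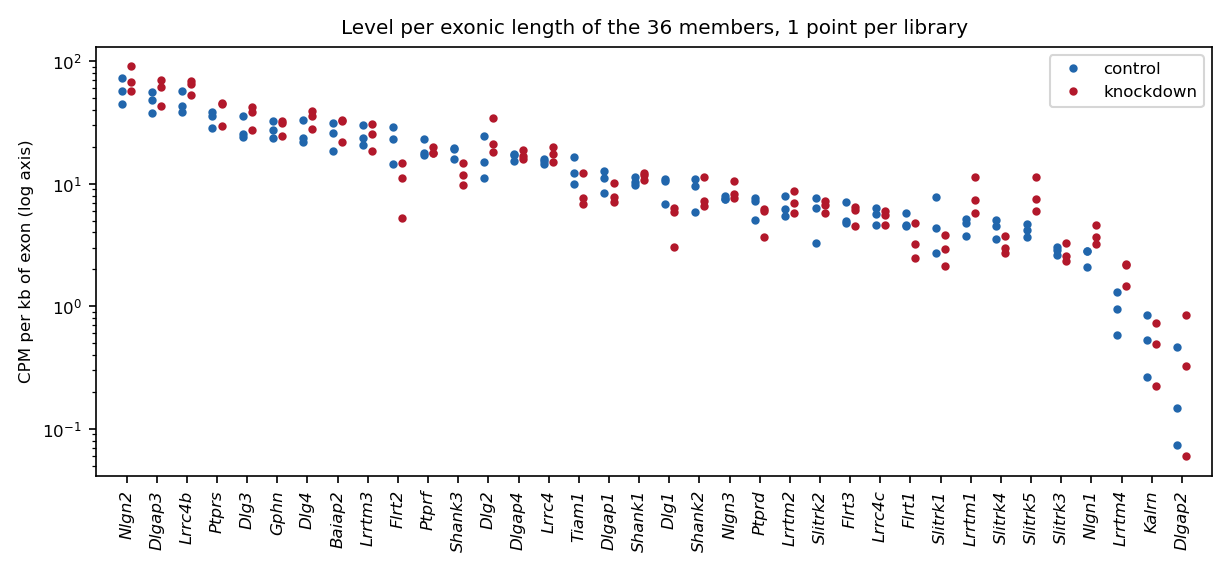
CPM per kilobase of exon (log axis) of the 36 members in the 3 control (blue) and 3 knockdown (red) libraries, ordered by the control mean. Nlgn2 is highest at 58.4 and Dlgap2 lowest at 0.228 CPM per kb in controls.

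Of 89 related genes tested (other adaptors, organisers, liprins and Rac regulators), 2 rose and 6 fell, 8.99% in all against 7.98% of all genes tested (edgeR adjusted p from 0.0282 to 0.047 for these 8). Among 27 other excitatory adaptors 1 rose, Sorbs2, an SH3 adaptor of actin-rich sites (55.6 ± 3.45 to 87.7 ± 12.1 CPM, SD, n = 3; log2 fold change 0.65). Among 24 other synaptic organisers Lrfn1, a PSD-95-binding adhesion gene, rose (0.43, SE 0.08) and 3 fell. These were Il1rap, whose product binds Ptprd (−1.35, SE 0.10), the teneurin gene Tenm3 (88.3 ± 50.9 to 27.1 ± 13.5 CPM, SD, n = 3; −1.59, SE 0.23) and the latrophilin gene Lphn2 (−0.40, SE 0.07), the last named after its value was seen. Teneurins and Flrt proteins are both ligands of latrophilins. None of the other teneurin and latrophilin genes among these organisers passed, at log2 fold changes from −0.79 to 0.79.

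Among 9 other inhibitory postsynaptic genes Fam196a fell, from 4.15 ± 2.29 to 0.968 ± 0.676 CPM (SD, n = 3; −2.27, SE 0.27). Of 6 liprin genes Ppfibp1 fell (−0.61, SE 0.10), and of 23 Rac and actin regulators Pak1, a kinase downstream of Rac, fell (532 ± 126 to 347 ± 42.7 CPM, SD, n = 3; −0.60, SE 0.11). None of these 8 genes passed without the block (edgeR adjusted p from 0.216 to 0.688). The median log2 fold change of the 89 genes was −0.01.

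Exons of Kdm6b, Shank3, Nlgn1, Lrrtm4, Gphn, Dlgap1, Dlgap4, Shank1, Lrrtm2, Ptprd, Sorbs2, Il1rap, Tenm3 and Ppfibp1 share bases with an antisense gene. This overlap ranged from 7 of 22822 exonic bases in Ptprd to 1543 of 6147 in Lrrtm4, with 286 of 6954 in Kdm6b. Dlg2 and Nlgn3 share exonic bases with a sense gene. Among the markers named above, Zic1, Itpr1, Rora and Pcp2 share exonic bases with an antisense gene, and Col3a1 with a sense gene. Levels of these genes are uncertain, because how the counting used strand is not given in the labels. Nothing in the labels says that replicates were separate cultures. The p-values then measure only the spread between these samples, which may be technical.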

How the data were processed

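The authors deposited whole-number read counts per gene, not normalized, for 6 stranded mRNA libraries. Trimmomatic, TopHat2, HTSeq, edgeR, DESeq2 and mouse build mm9 are named without versions, per the submitters' processing notes. Tallies naming no gene were left out (no feature 12.1% to 15.0%, ambiguous 0.406% to 0.509%, not unique 16.0% to 19.3% of all counts).

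Counts were filtered with filterByExpr (minimum count 10, total 15), which left 15731 genes, scaled with TMM and tested with the edgeR 4.0.16 quasi-likelihood F test (R 4.3.3), adjusted over all genes by the Benjamini-Hochberg method at 0.05. The SE is the absolute log2 fold change over the square root of F. The planned fit had no replicate term. Deviations from group means correlated between same-numbered libraries at 0.814, 0.673 and 0.759, and between others at −0.542 to 0.0166, so the numbers were taken to pair the libraries. This comes from the data, not the labels. Deviations from a group mean cancel out within the group. The low values between other libraries thus follow in part from the high ones and add no separate support. No 2 replicates agreed within sampling noise (chi-square over degrees of freedom, 174 to 381).

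By rule, values per library are given for members that passed in either fit or had separate groups and a mean of at least 5 CPM, and the most abundant member of each role is described. Other members given per library were chosen after their values were seen. From each related list up to 3 called genes are named. Members and lists were chosen with earlier results of these data known. Alternatives used RLE, upper-quartile or no factors, other filters, DESeq2 1.42.0, limma-voom (limma 3.58.1) and left-out libraries. Some marker gene results are not reported here.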

Additional observations from a re-analysis of the deposited data

How the results depend on the processing

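Calls depended on the replicate block. Without it, 0 members were called higher and 0 lower under RLE, upper-quartile or library-total scaling, no filter, a mean of at least 5 CPM, limma-voom and each left-out library, and 1 higher with DESeq2. Over all genes tested these fits, other than DESeq2, called 0 or 1 gene, and DESeq2 called 568. With the replicate block, 1 was higher and 3 lower, also under RLE or upper-quartile factors, limma-voom and the 5 CPM filter. These fits called 1256 to 1440 of all 15731 genes (11784 at 5 CPM). With the block and library totals alone, 3 were higher and 2 lower, with the median log2 fold change at 0.17. Over all 15731 genes this scaling called 1276. It also moved the median of all genes, to 0.088 from 0.017 with TMM factors and the block. DESeq2 with the block gave 9 higher and 9 lower, a larger share of the members than 3440 of all 15731 genes. Besides Slitrk5, those higher were Dlg2, Dlg4, Dlgap3, Nlgn1, Nlgn2, Lrrtm1, Lrrtm4 and Lrrc4b. Besides Dlg1, Slitrk4 and Flrt2, those lower were Dlgap1, Shank3, Slitrk1, Flrt1, Ptprd and Tiam1. With the block and a pair left out, 0 to 1 were higher and 0 to 2 lower. Over all genes tested, 0 were then called without pair 1, 53 without pair 2 and 1272 of 15788 without pair 3. The median ranged from 0.045 to 0.20 with 1 library left out and from 0.025 to 0.14 with 1 pair left out and the block.

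The sign of 12 members changed under at least 1 alternative, and the cause was not tested. The Lrrtm3 value was −0.012 with RLE factors and DESeq2, −0.0088 without a filter, −0.0089 with limma-voom, and −0.0076 with the block. With the block it was −0.024 under RLE and DESeq2, −0.0082 under limma-voom and −0.0023 at 5 CPM. Flrt3 lay at −0.00036 with RLE factors and −1.4e-05 with DESeq2. Library totals alone gave 0.039 for Lrrc4c in both fits, 0.020 for Ptprf (0.022 with the block) and 0.0055 for Shank2 with the block.

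With 1 library left out, without the block, log2 fold changes ranged as follows in the members whose sign changed, namely Dlgap2 −0.26 to 1.89, Dlgap4 −0.019 to 0.11, Flrt3 −0.088 to 0.22, Gphn −0.029 to 0.21, Kalrn −0.62 to 0.28, Lrrc4c −0.15 to 0.074, Lrrtm2 −0.051 to 0.28, Lrrtm3 −0.18 to 0.18, Ptprf −0.14 to 0.071, Shank2 −0.35 to 0.11, Slitrk2 −0.082 to 0.46 and Slitrk3 −0.23 to 0.014. With 1 pair left out and the replicate block, the ranges were Flrt3 −0.18 to 0.35 (−0.11 without pair 3), Lrrc4c −0.093 to 0.024, Lrrtm2 −0.022 to 0.23, Lrrtm3 −0.074 to 0.057, Ptprf −0.099 to 0.018, Shank2 −0.19 to 0.10 and Slitrk2 −0.0093 to 0.46. No other member, and neither Kdm6b nor any related gene named, changed sign under any alternative (33 of 45 genes). Dlgap2, at 0.369 to 5.25 CPM, rests on the fewest reads of the 36 members.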
